A study of Mus musculus with 32 samples.

Results

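The comparison described here sets E4/4 mice that received D4F against E3/3 mice that received the vehicle phosphate-buffered saline (PBS). Its members are 16 of the 32 brain libraries of the series. They were chosen by genotype and treatment as labelled and are 8 E4/4 D4F libraries (4 female and 4 male) and 8 E3/3 PBS libraries (4 female and 4 male). All 32 mice carry human APOE coding sequence on both alleles in place of the mouse gene, APOE3 in E3/3 and APOE4 in E4/4. D4F or PBS was given daily for 12 weeks, from an age of 10.5 ± 0.1 to 13.2 ± 0.1 months. RNA came from homogenized brain tissue, and the labels do not say which part of the brain was taken. Female and male differences were averaged. The 2 groups differ in genotype and in treatment, so the share of each cannot be told apart within the comparison. The values for E4/4 PBS against E3/3 PBS, and for E4/4 D4F against E4/4 PBS, are therefore given beside it. These comparisons share libraries with the one described and are not independent of it.

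APOE is the main lipid carrier of the brain. Astrocytes release it, the transporter ABCA1 loads it with cholesterol and phospholipid, and neurons take the particles up through a family of lipoprotein receptors. The APOE4 form is known to carry less lipid than APOE3 and raises the risk of Alzheimer's disease. D4F is a short peptide made of D-amino acids that mimics apolipoprotein A-I, the main protein of high-density lipoprotein, and accepts lipid from ABCA1. The comparison asks how the brain of a treated APOE4 mouse stands against that of an untreated APOE3 mouse.

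The E3/3 PBS libraries held 19.26 to 35.84 M (mega) counts and the E4/4 D4F libraries 17.77 to 40.96 M. The means were 24.8 ± 6.44 and 32.4 ± 9.24 M (SD, n = 8 each, exact two-sided permutation p = 0.0791, also after adjustment over 3 such tests). Of the libraries under 26 M counts, 6 were E3/3 PBS and 2 were E4/4 D4F. Each library's deviation from the mean log2 CPM (counts per M) was regressed on GC content over genes. The slope per percent GC was 0.0117 ± 0.0115 in E3/3 PBS and −0.00669 ± 0.00389 in E4/4 D4F (SD, n = 8 each, exact two-sided permutation p = 0.000777, adjusted p = 0.00117 over 3 tests). The E3/3 PBS libraries above 26 M counts had slopes of 0.00023 and −0.00514, and the other 6 lay between 0.00513 and 0.0297. The labels number all E3/3 libraries from 19002 to 19074 and all E4/4 libraries from 18643 to 18793, so genotype and library number cannot be told apart. E3/3 D4F libraries, of the same genotype and number series as E3/3 PBS, had slopes from −0.00803 to 0.0096. Over genes, the log2 change correlated with GC content at r = −0.311 in the comparison described. The value was −0.231 for E3/3 D4F against E3/3 PBS and −0.0148 for E4/4 D4F against E4/4 PBS. The source of the E3/3 PBS slopes was not tested. The library E3/3_F_PBS_1 stood apart from the other 7 of its group, with the highest Gfap (228 CPM, next 145) and the lowest Snap25 (1660 CPM, next 2740). Without it 3848 genes were called in place of 3927, and 3306 were in both sets. Markers of neurons, astrocytes, oligodendrocytes and microglia were detected in all 16 libraries. Among cerebellar and hindbrain markers, Gabra6, Barhl1 and the Hox genes did not pass the filter on low counts.

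**Figure D1:**
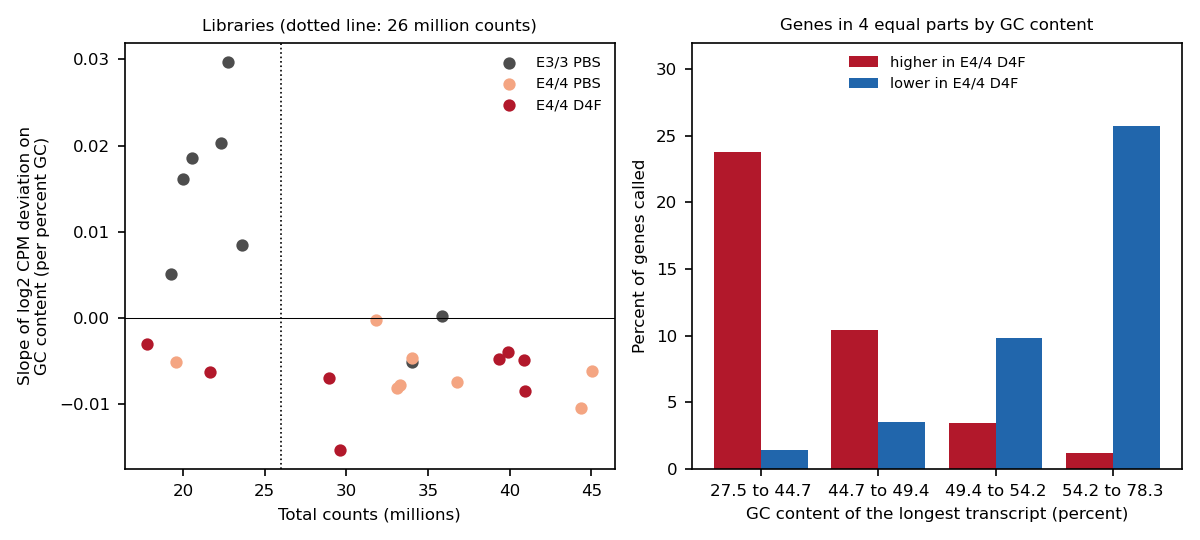
Left, slope of a library's log2 CPM deviation on gene GC content (per percent GC) against its total counts in M, 1 point per library; right, percent of genes called higher (red) or lower (blue) in E4/4 D4F than in E3/3 PBS in 4 equal parts of genes by GC content. Among the 16 libraries compared, the E3/3 PBS libraries under 26 M counts have the steepest positive slopes, and calls go from 23.8% higher at the lowest GC content to 25.7% lower at the highest.

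Of 20298 genes tested, 3927 (19.3%) passed an adjusted p of 0.05 in edgeR. They were nearly balanced, with 1937 higher (9.54%) and 1990 lower (9.8%) in E4/4 D4F. The typical called gene differed little, with a median absolute log2 change of 0.31: 499 exceeded 1.5-fold (305 higher, 194 lower) and 169 exceeded 2-fold (130 higher, 39 lower). The CPM of the groups of 8 did not overlap for 407 genes (2.01%), 141 higher (0.695%) and 266 lower (1.31%). Called genes were sorted by base composition. With genes divided in 4 equal parts by GC content, 23.8% were higher and 1.4% lower in the part with the lowest GC (27.5 to 44.7%). In the part with the highest (54.2 to 78.3%), 1.23% were higher and 25.7% lower. With GC and length trends removed 2211 genes were called, 640 higher and 1571 lower, with depth class (under or over 26 M counts) in the model 1612 (723 higher, 889 lower), and with both 563 (157 higher, 406 lower). Within the libraries above 26 M counts, where only 2 are E3/3 PBS, edgeR called 0 genes (1949 at an unadjusted p under 0.05), and the median called gene kept 0.496 of its change. Named calls that the first 2 adjustments end are therefore listed in the paragraphs that follow, and lists with several calls are counted again under each adjustment and under both.

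By the smallest p, the leading gene was B4galnt1, which makes the core of complex gangliosides, the sialylated lipids of neuronal membranes (chromosome 10, 127165225 to 127172330). B4galnt1 ranged from 153 to 220.3 CPM (median 204) in E3/3 PBS and from 112 to 140.5 CPM (median 127) in E4/4 D4F libraries (log2 −0.62, SE 0.0682, edgeR adjusted p = 6.92e-06). Every E4/4 D4F library was below every E3/3 PBS library. Dlgap3, a scaffold of excitatory synapses (chromosome 4, 127169204 to 127237022), ranged from 284 to 424 CPM (median 355) in E3/3 PBS and from 180.5 to 254 CPM (median 219) in E4/4 D4F libraries (log2 −0.69, SE 0.0863, edgeR adjusted p = 3.32e-05). Cdk5r2, an activator of the neuronal kinase CDK5 (chromosome 1, 74854934 to 74857732), ranged from 194 to 286 CPM (median 258) in E3/3 PBS and from 130.1 to 185.5 CPM (median 165) in E4/4 D4F libraries (log2 −0.65, SE 0.0835, edgeR adjusted p = 3.32e-05). Both sets of 8 libraries were again separate. Map3k10, a kinase upstream of JNK signalling, fell by 0.49 on the log2 scale (edgeR adjusted p = 3.32e-05), with overlapping groups.

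Dhx36, a helicase that unwinds G-quadruplexes, had the smallest p among increases. Dhx36 (chromosome 3, 62468013 to 62507004) ranged from 52.5 to 75.6 CPM (median 58.3) in E3/3 PBS and from 78.4 to 90.6 CPM (median 81.5) in E4/4 D4F libraries (log2 0.44, SE 0.0617, edgeR adjusted p = 5.89e-05). Synpr, a synaptic vesicle membrane protein (chromosome 14, 13284780 to 13616340), ranged from 58.9 to 101.5 CPM (median 71.7) in E3/3 PBS and from 103 to 136 CPM (median 129) in E4/4 D4F libraries (log2 0.69, SE 0.0995, edgeR adjusted p = 6.95e-05). Tmem60, a membrane protein gene, ranged from 7.9 to 13 CPM (median 9.025) in E3/3 PBS and from 13.9 to 18.4 CPM (median 15.45) in E4/4 D4F libraries (log2 0.68, SE 0.0995, edgeR adjusted p = 7.71e-05). For these 3 genes the lowest E4/4 D4F library was above the highest E3/3 PBS library. The same genes differed between E4/4 PBS and E3/3 PBS by 0.43 (Dhx36), 0.72 (Synpr) and 0.57 (Tmem60), and B4galnt1, Dlgap3, Cdk5r2 and Map3k10 by −0.60, −0.70, −0.63 and −0.51 (log2). Between E4/4 D4F and E4/4 PBS the 7 log2 differences lay between −0.025 for Synpr and 0.11 for Tmem60, and none passed in edgeR.

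Gene lists covered 923 distinct symbols in 41 groups. Their members' calls are read against the 9.54% of all tested genes that were higher and the 9.8% that were lower. The lists of cholesterol export, APOE receptor, proteasome, antioxidant and ribosomal protein genes lay near these shares. Their counts are not read as results about the members. Counts under an adjustment are read against that fit's own calls among the 20298 genes. Those were 723 higher and 889 lower with depth class and 640 and 1571 with GC and length trends removed. With both they were 157 and 406. Only members that passed the filter on low counts could be tested. The filter ran over all 8 groups, so a member with low counts in a compared group could pass through another group. Such passage favours members that differ, so counts and medians are descriptions of the tested members.

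**Figure D2:**
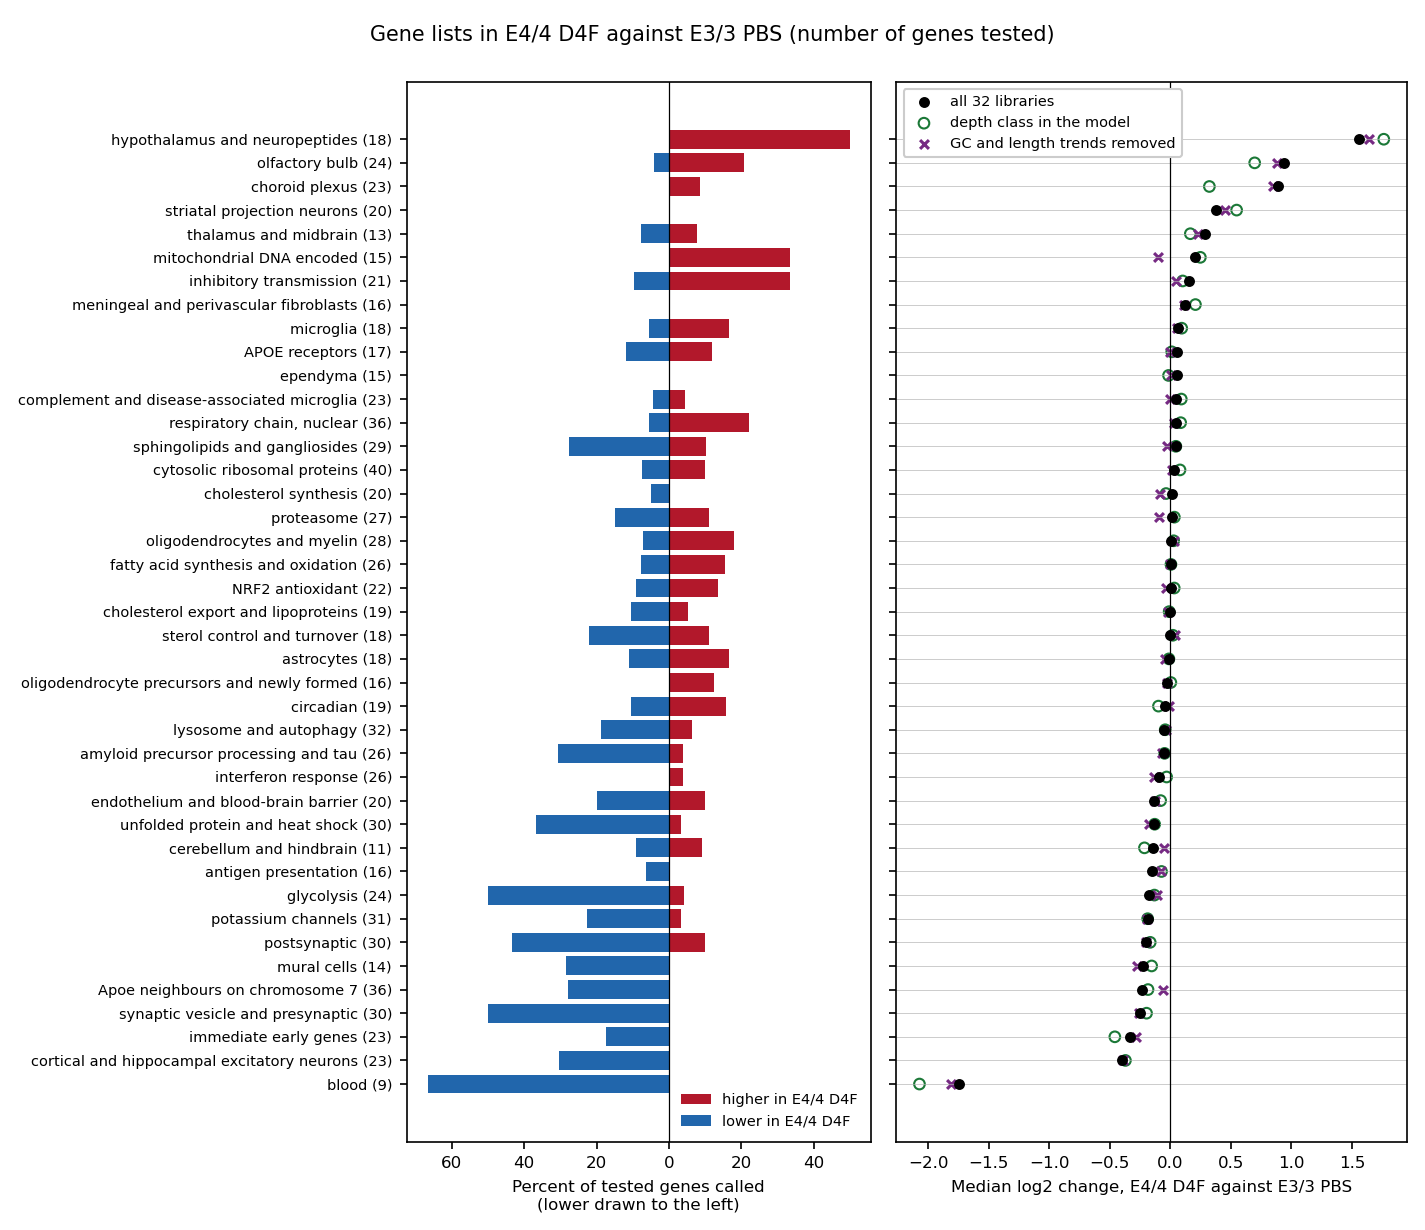
Left, percent of each list's tested genes called higher (red) or lower (blue, drawn to the left) in E4/4 D4F; right, the list's median log2 change from all 32 libraries (black), with depth class in the model (green) and with GC and length trends removed (purple). Hypothalamic and neuropeptide genes have the highest median (1.56) and blood genes the lowest (−1.75).

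Among 19 genes of cholesterol export and lipoproteins, 1 rose and 2 fell, near the shares of all tested genes (9.54% and 9.8%), with a list median of −0.0032. The counts were 1 higher and 1 lower with depth class modelled. They were 1 higher and 0 lower with GC and length trends removed, and also with both. The rise was Abca1, the exporter that hands cholesterol to APOE (chromosome 4, 53030787 to 53159895). Abca1 ranged from 18.7 to 28.85 CPM (median 21.6) in E3/3 PBS and from 28.8 to 36.1 CPM (median 32.8) in E4/4 D4F libraries (log2 0.54, SE 0.0784, edgeR adjusted p = 6.95e-05, 1.46-fold). The groups touched at a single value: the highest E3/3 PBS library, at 28.9 CPM, lay just above the lowest E4/4 D4F library, at 28.8 CPM. The rise was 0.55 in females and 0.53 in males (log2, edgeR adjusted p = 0.00273 and 0.0466). Against E3/3 PBS, E4/4 PBS stood at 0.66, and E4/4 D4F against E4/4 PBS at −0.12 (log2, unadjusted p = 0.143). The Abca1 promoter is shown because Abca1 is the called lipid export gene with the smallest p. It spans chr4:53159846-53160145 in GRCm38.p6 (RefSeq, minus strand, 250 bases before to 50 after the start), 5′ to 3′, with the E-box letters CACGTG in capitals.
Abca1: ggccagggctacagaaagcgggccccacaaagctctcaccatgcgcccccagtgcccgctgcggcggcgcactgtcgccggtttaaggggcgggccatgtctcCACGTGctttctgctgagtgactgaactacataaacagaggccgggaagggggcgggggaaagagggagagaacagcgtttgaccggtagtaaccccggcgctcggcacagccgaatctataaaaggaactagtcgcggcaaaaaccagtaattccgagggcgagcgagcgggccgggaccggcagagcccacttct
CACGTG reads the same on both strands and occurs in 7.15% of 32851 mouse promoters of this length. The match is a description of the sequence only.

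The falls in the export list were Abca3 (−0.19), a lipid pump best known from lung surfactant, and Abca7 (−0.25), an ABCA1 relative linked to Alzheimer's disease risk in humans (log2). The sterol exporter Abcg1 did not pass (log2 0.033, 95% interval −0.083 to 0.15, adjusted p = 0.75), nor did the lipoprotein Clu (log2 −0.11, 95% interval −0.24 to 0.023, adjusted p = 0.277), the cholesterol-esterifying enzyme Lcat (log2 −0.0013, 95% interval −0.22 to 0.22, adjusted p = 0.996) or the high-density lipoprotein receptor Scarb1 (log2 −0.067, 95% interval −0.23 to 0.10, adjusted p = 0.636). Reads named Apoe ran from 1.88 to 3.06 CPM over the 16 libraries and did not pass (log2 −0.17, 95% interval −0.51 to 0.17, adjusted p = 0.53). The mouse coding sequence is replaced in these mice, so this gene name does not read out APOE expression. Once depth class entered the model Abca7 (log2 −0.24, adjusted p = 0.106) did not pass in edgeR. Removal of GC and length trends ended the edgeR calls of Abca3 (log2 −0.13, adjusted p = 0.0774) and Abca7 (log2 −0.12, adjusted p = 0.37). Abca7 passed in 7 of the 16 fits that left out 1 library (adjusted p up to 0.0947).

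Of 17 APOE receptor genes, 2 rose and 2 fell (median 0.056), near the shares of all tested genes (9.54% and 9.8%). Depth class in the model gave 2 higher and 1 lower, removal of GC and length trends 0 higher and 1 lower. Both together gave 0 higher and 0 lower. Vldlr, a receptor for APOE and reelin, ranged from 59.3 to 81.6 CPM (median 69.7) in E3/3 PBS and from 76.8 to 104 CPM (median 90.5) in E4/4 D4F libraries (log2 0.38, SE 0.0953, edgeR adjusted p = 0.00524), with groups that overlapped. Lrp1b, a relative of the endocytic receptor Lrp1, also rose (0.37), whereas Lrp5, a Wnt co-receptor (−0.52), and Lrp1 (−0.18) fell (log2). Lrp8, the other reelin receptor (log2 0.063, 95% interval −0.11 to 0.23, adjusted p = 0.668), and Sorl1, a sorting receptor for the amyloid precursor (log2 −0.28, 95% interval −0.53 to −0.025, adjusted p = 0.133), did not pass. Modelling depth class ended the edgeR calls of Lrp1 (log2 −0.17, adjusted p = 0.121). Without GC and length trends Lrp1b (log2 0.18, adjusted p = 0.0971), Vldlr (log2 0.22, adjusted p = 0.127) and Lrp1 (log2 −0.10, adjusted p = 0.244) did not pass in edgeR. Lrp1 passed in 6 of the 16 fits that left out 1 library (adjusted p up to 0.0896).

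Cholesterol synthesis showed 1 change among 20 genes. Pmvk, a kinase of the mevalonate pathway (chromosome 3, 89454541 to 89469013), ranged from 43.2 to 61.3 CPM (median 52.4) in E3/3 PBS and from 36.1 to 44 CPM (median 40.7) in E4/4 D4F libraries (log2 −0.38, SE 0.0811, edgeR adjusted p = 0.00169). Srebf2, the transcription factor that drives the pathway, did not pass (log2 −0.13, 95% interval −0.26 to −0.0034, adjusted p = 0.162). Among 18 genes of sterol control and turnover 2 rose and 4 fell. With depth class modelled there were 0 higher and 3 lower, with GC and length trends removed 0 higher and 1 lower and with both 0 higher and 0 lower. Stard3, a cholesterol transfer protein of late endosomes (−0.26), Nr1h2, which encodes the oxysterol receptor LXRβ (−0.23), its partner Rxra (−0.27) and Cyp46a1, the neuronal enzyme that clears cholesterol as 24-hydroxycholesterol (−0.34), were lower. Soat1, which esterifies cholesterol (0.29), and Insig2, which holds back the sterol sensor (0.21), were higher (log2). Of 26 fatty acid genes, 4 rose and 2 fell. These counts were 1 higher and 1 lower with depth class, 1 higher and 4 lower without GC and length trends and 0 higher and 1 lower with both. Fabp7, a fatty acid binding protein of astrocytes and radial glia, ranged from 9.29 to 28 CPM (median 13.7) in E3/3 PBS and from 25.7 to 66.5 CPM (median 34.7) in E4/4 D4F libraries (log2 1.25, SE 0.315, edgeR adjusted p = 0.00717), while the neuronal Fabp3 (−0.33) and fatty acid synthase Fasn (−0.24) fell and the beta-oxidation subunit Hadhb rose (0.20). Hadhb was at −0.0371 with GC and length trends removed. In the model that holds depth class, Cyp46a1 (log2 −0.22, adjusted p = 0.0541), Soat1 (log2 0.24, adjusted p = 0.0573), Insig2 (log2 0.14, adjusted p = 0.15), Fasn (log2 −0.21, adjusted p = 0.0606) and Hadhb (log2 0.14, adjusted p = 0.112) missed the edgeR threshold. Taking out GC and length trends left Nr1h2 (log2 −0.08, adjusted p = 0.237), Stard3 (log2 −0.19, adjusted p = 0.0507), Rxra (log2 −0.16, adjusted p = 0.149), Soat1 (log2 0.14, adjusted p = 0.131), Insig2 (log2 0.12, adjusted p = 0.232), Fasn (log2 −0.14, adjusted p = 0.0949) and Hadhb (log2 −0.037, adjusted p = 0.746) above the edgeR threshold of 0.05. Insig2 passed in 14 of the 16 fits that left out 1 library.

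Sphingolipid and ganglioside genes were lower in 8 and higher in 3 of 29 cases, with a median near 0 (0.044). Called members numbered 1 higher and 4 lower under the depth class model, 0 higher and 4 lower after GC and length removal and 0 higher and 1 lower under both. Beside B4galnt1, the lower genes held Cers1, the neuronal synthase of ceramide with stearoyl chains, which ranged from 32.5 to 53.5 CPM (median 44.9) in E3/3 PBS and from 26.1 to 35.8 CPM (median 29.4) in E4/4 D4F libraries (log2 −0.53, SE 0.107, edgeR adjusted p = 0.00102). Sphk2, which phosphorylates sphingosine (−0.39), also fell. Ugt8a, which makes galactosylceramide of myelin (chromosome 3, 125865271 to 125938619), ranged from 20.3 to 39.75 CPM (median 27.1) in E3/3 PBS and from 33.05 to 47.4 CPM (median 39.1) in E4/4 D4F libraries (log2 0.45, SE 0.102, edgeR adjusted p = 0.00273). Only the top E3/3 PBS libraries reached into the E4/4 D4F range of Ugt8a. After GC and length trends were removed Ugt8a (log2 0.22, adjusted p = 0.0804) missed the edgeR threshold.

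**Figure D3:**
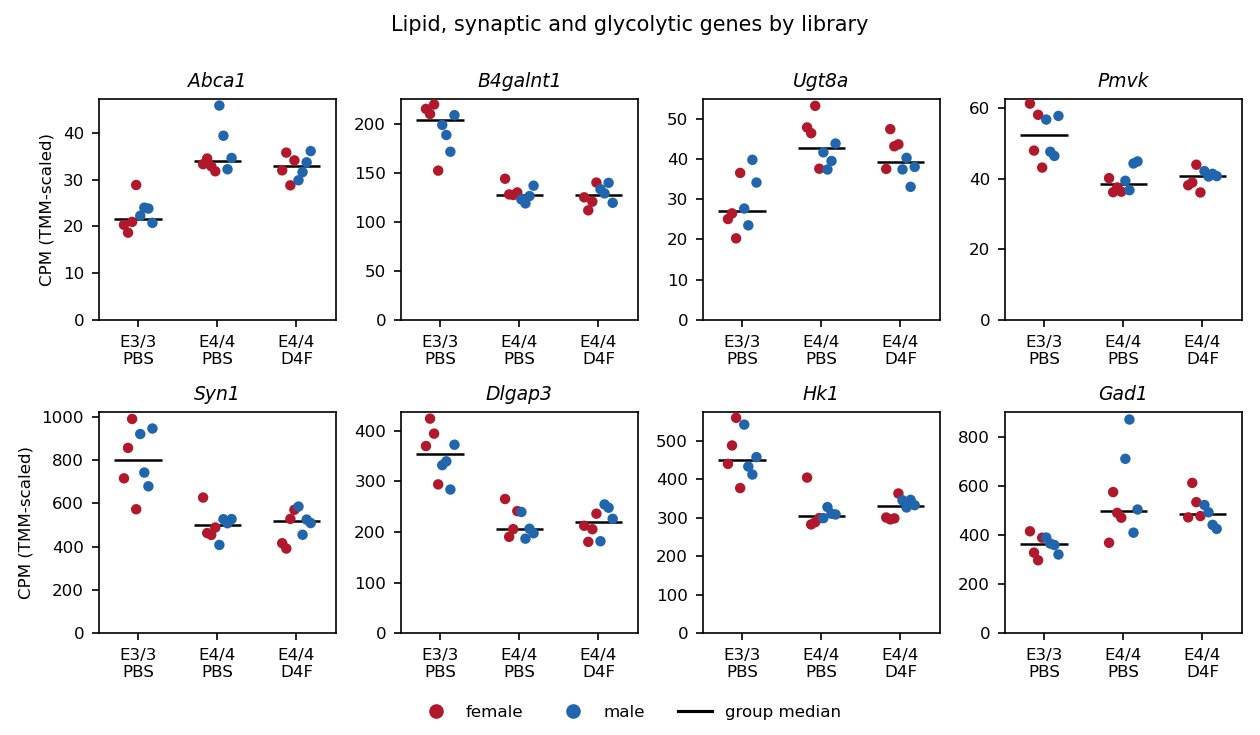
TMM-scaled CPM of 8 genes, 1 point per library (red female, blue male), with black lines at the group medians, in E3/3 PBS, E4/4 PBS and E4/4 D4F (n = 8 each). Abca1, Ugt8a and Gad1 sit higher and B4galnt1, Pmvk, Syn1, Dlgap3 and Hk1 lower in E4/4 D4F than in E3/3 PBS, with E4/4 PBS beside E4/4 D4F.

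Many synaptic genes were lower on both sides of the synapse. Of 30 presynaptic and vesicle genes, 15 fell and 0 rose, with a median of −0.25 (−0.30 in females and −0.18 in males). For this list, depth class gave 0 higher and 7 lower, GC and length removal 0 higher and 11 lower and both 0 higher and 4 lower. Syn1, which tethers vesicles to the cytoskeleton (chromosome X, 20860511 to 20921004), ranged from 573 to 990.0 CPM (median 799) in E3/3 PBS and from 391 to 585.3 CPM (median 517) in E4/4 D4F libraries (log2 −0.69, SE 0.11, edgeR adjusted p = 0.000154). The E3/3 PBS minimum lay inside the E4/4 D4F range and the other libraries of that group sat higher. Syp, an abundant vesicle membrane protein (−0.42), Sncb, a synuclein (−0.60), Vamp2, the vesicle fusion protein (−0.40), its partner Stx1a (−0.64), and the endocytic GTPase Dnm1 (−0.48) also fell (log2). Snap25, another fusion partner, did not pass (log2 −0.14, 95% interval −0.41 to 0.14, adjusted p = 0.532). Once depth class entered the model Stx1a (log2 −0.60, adjusted p = 0.0637) did not pass in edgeR. Removal of GC and length trends ended the edgeR calls of Stx1a (log2 −0.54, adjusted p = 0.0731).

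The Syn1 promoter is shown as that of the called presynaptic gene with the smallest p. It spans chrX:20920869-20921168 in GRCm38.p6 (RefSeq, minus strand), 5′ to 3′, with TTCAGCACC in capitals, the left part of the element bound by the neuronal repressor REST.
Syn1: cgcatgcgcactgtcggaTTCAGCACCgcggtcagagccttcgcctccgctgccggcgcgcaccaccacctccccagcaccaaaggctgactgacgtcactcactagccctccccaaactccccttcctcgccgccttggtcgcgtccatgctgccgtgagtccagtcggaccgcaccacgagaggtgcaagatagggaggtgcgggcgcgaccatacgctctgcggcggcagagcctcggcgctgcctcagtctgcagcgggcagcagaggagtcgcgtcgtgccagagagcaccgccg
On either strand TTCAGCACC occurs in 0.371% of the 32851 promoters. The promoter has a GC content of 68.3%, against 62.7% for Abca1.

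On the postsynaptic side 13 of 30 genes fell and 3 rose (median −0.20). Depth class in the model gave 3 higher and 11 lower, removal of GC and length trends 1 higher and 11 lower, and both together 1 higher and 6 lower. Beside Dlgap3, the lower genes included the scaffolds Shank1 (−0.86), Dlg4, which encodes PSD-95 (−0.47), and Dlgap4 (−0.44), the NMDA receptor subunit Grin1 (−0.51) and the kinase Camk2a (−0.52). Grin1 ranged from 506.5 to 673 CPM (median 600.2) in E3/3 PBS and from 357 to 483 CPM (median 414) in E4/4 D4F libraries (log2 −0.51, SE 0.0789, edgeR adjusted p = 0.000113). The metabotropic glutamate receptor Grm5 (0.32) and the adhesion protein Nlgn3 (0.16) went the other way (log2). Without GC and length trends Grm5 (log2 0.13, adjusted p = 0.274) and Nlgn3 (log2 0.11, adjusted p = 0.236) did not pass in edgeR.

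Markers of cortical and hippocampal excitatory neurons fell in 7 of 23 cases and rose in none (median −0.40). With depth class modelled there were 0 higher and 4 lower, with GC and length trends removed 0 higher and 4 lower and with both 0 higher and 0 lower. The lower genes included Slc17a7, the vesicular glutamate transporter of the forebrain (−0.60), the cortical transcription factors Emx1 (−0.88) and Neurod2 (−0.72), and the calmodulin-binding Nrgn (−0.84). The summed CPM of the list ran from 5768 to 9444 in E3/3 PBS and from 4124 to 6517 in E4/4 D4F libraries. In bulk tissue, fewer cells of a type and less RNA per cell cannot be told apart. The part of this list in the synaptic differences was not tested. In the model that holds depth class, Nrgn (log2 −0.69, adjusted p = 0.0735) missed the edgeR threshold. Taking out GC and length trends left Emx1 (log2 −0.70, adjusted p = 0.0582) above the edgeR threshold of 0.05.

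Genes of inhibitory transmission held more rises than falls, with 7 of 21 higher and 2 lower (median 0.15). These counts were 3 higher and 0 lower with depth class, 1 higher and 1 lower without GC and length trends and 0 higher and 0 lower with both. The list median was −0.017 among libraries above 26 M counts and 0.20 among those below. Gad1, which makes GABA from glutamate (chromosome 2, 70553072 to 70602014), ranged from 298 to 416 CPM (median 363) in E3/3 PBS and from 426 to 613 CPM (median 486) in E4/4 D4F libraries (log2 0.47, SE 0.114, edgeR adjusted p = 0.00463). All E4/4 D4F libraries were above the E3/3 PBS libraries. Gad2, the second GABA-making enzyme, rose by 0.62 (log2). Gabbr2, a subunit of the GABA-B receptor (−0.56), and the neuropeptide Sst (−0.41) fell. Calls lost in edgeR once depth class was modelled were those of Gad2 (log2 0.62, adjusted p = 0.113), Gabbr2 (log2 −0.50, adjusted p = 0.0738) and Sst (log2 −0.23, adjusted p = 0.328). After GC and length trends were removed Gad2 (log2 0.47, adjusted p = 0.178) and Gabbr2 (log2 −0.47, adjusted p = 0.0522) missed the edgeR threshold. Gad2 passed in 5 of the 16 fits that left out 1 library and Sst passed in 5 of the 16 fits that left out 1 library.

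Among 31 potassium channel genes 7 fell, among them the calcium-activated Kcnn1 (−0.48), and 1 rose, the A-type channel Kcnd2 (0.42). Called members numbered 1 higher and 4 lower under the depth class model, 1 higher and 9 lower after GC and length removal and 0 higher and 0 lower under both. The cation channel Hcn2 was lower too (−0.39). Immediate early genes, which neurons switch on with activity, fell in 4 of 23 cases and rose in none (median −0.34). For this list, depth class gave 0 higher and 4 lower, GC and length removal 0 higher and 3 lower and both 0 higher and 2 lower. The lower genes were the transcription factors Egr1 (−0.44), Egr3 (−0.62) and Jund (−0.58) and the secreted Nptx2 (−0.39). Egr3 ranged from 102 to 213 CPM (median 143) in E3/3 PBS and from 75.5 to 139.5 CPM (median 92) in E4/4 D4F libraries (log2 −0.62, SE 0.15, edgeR adjusted p = 0.00495), with overlapping groups. The list median was −0.16 for E4/4 PBS against E3/3 PBS and −0.17 for E4/4 D4F against E4/4 PBS. Circadian genes were split, with 3 of 19 higher and 2 lower. Under the depth class model 2 were higher and 0 lower, after GC and length removal 1 higher and 2 lower. Under both, 0 were higher and 0 lower. The activator Clock (0.34) and the repressor Bhlhe41 (0.38) rose, and the activators Npas2 (−0.28) and Arntl (−0.29) fell (log2). The labels used here give no time of day for the tissue. Once depth class entered the model Nptx2 (log2 −0.36, adjusted p = 0.0568), Npas2 (log2 −0.20, adjusted p = 0.0502) and Arntl (log2 −0.19, adjusted p = 0.200) did not pass in edgeR. Removal of GC and length trends ended the edgeR calls of Hcn2 (log2 −0.17, adjusted p = 0.191), Egr1 (log2 −0.32, adjusted p = 0.139), Nptx2 (log2 −0.26, adjusted p = 0.098) and Clock (log2 0.12, adjusted p = 0.0952). Egr1 did not pass without E4/4_F_D4F_1 (adjusted p = 0.0533) and E4/4_F_D4F_2 (adjusted p = 0.0526) and Arntl passed in 11 of the 16 fits that left out 1 library (adjusted p up to 0.104).

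Glycolysis was lower in 12 of 24 genes and higher in 1 (median −0.18). Depth class in the model gave 0 higher and 4 lower, removal of GC and length trends 0 higher and 7 lower, and both together 0 higher and 2 lower. Hk1, the brain hexokinase that starts the pathway (chromosome 10, 62268855 to 62379908), ranged from 377 to 559 CPM (median 448.5) in E3/3 PBS and from 296 to 363 CPM (median 329.5) in E4/4 D4F libraries (log2 −0.51, SE 0.0808, edgeR adjusted p = 0.000144). No E4/4 D4F library reached the lowest E3/3 PBS value. Pdk2, which restrains pyruvate dehydrogenase (−0.41), Gapdh (−0.36), the phosphofructokinase Pfkl (−0.25) and the glucose transporter Slc2a1 (−0.26) fell with it, and the pyruvate dehydrogenase subunit Pdhb rose (0.16). Among libraries above 26 M counts Gapdh stood at 0.0671 and the list median at −0.034. Below 26 M counts the list median was −0.18. Modelling depth class ended the edgeR calls of Gapdh (log2 −0.23, adjusted p = 0.0551) and Pdhb (log2 0.14, adjusted p = 0.0899). Without GC and length trends Pfkl (log2 −0.13, adjusted p = 0.161), Slc2a1 (log2 −0.20, adjusted p = 0.0600) and Pdhb (log2 0.071, adjusted p = 0.347) did not pass in edgeR. Pdhb passed in 15 of the 16 fits that left out 1 library.

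Nuclear genes of the respiratory chain were higher in 8 and lower in 2 of 36 cases (median 0.046). With depth class modelled there were 4 higher and 0 lower, with GC and length trends removed 2 higher and 5 lower and with both 1 higher and 0 lower. Ndufa4 (0.36) and Uqcrfs1 (0.31) rose and the ATP synthase subunit Atp5d fell (−0.41). Of 15 genes encoded by mitochondrial DNA 5 rose. These counts were 3 higher and 0 lower with depth class, 1 higher and 1 lower without GC and length trends and 1 higher and 0 lower with both. The ATP synthase subunit mt-Atp8 ranged from 1.35 to 3.54 CPM (median 2.61) in E3/3 PBS and from 3.83 to 6.86 CPM (median 5.14) in E4/4 D4F libraries (log2 0.98, SE 0.18, edgeR adjusted p = 0.000515), with separate groups. The median of the mitochondrial list was 0.20, or −0.10 with GC and length trends removed. Mitochondrial genes took from 5.53 to 8.73% of the counts in E3/3 PBS and from 6.44 to 8.04% in E4/4 D4F libraries. In the model that holds depth class, Atp5d (log2 −0.26, adjusted p = 0.0834) missed the edgeR threshold. Taking out GC and length trends left Ndufa4 (log2 0.12, adjusted p = 0.27) above the edgeR threshold of 0.05.

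Rn18s-rs5 had the largest increase among called genes that averaged at least 1 on the log2 CPM scale. Rn18s-rs5, annotated as a copy of 18S ribosomal RNA, ranged from 332 to 494 CPM (median 356) in E3/3 PBS and from 509 to 4051 CPM (median 2234) in E4/4 D4F libraries (log2 2.49, SE 0.402, edgeR adjusted p = 0.000267). Lars2, the mitochondrial leucyl-tRNA synthetase (chromosome 9, 123366927 to 123462666), ranged from 46.7 to 71.8 CPM (median 53.4) in E3/3 PBS and from 98.7 to 476 CPM (median 264) in E4/4 D4F libraries (log2 2.16, SE 0.292, edgeR adjusted p = 6.95e-05). The groups were separate for both genes, and E4/4_F_D4F_1 was the lowest and E4/4_M_D4F_2 the highest E4/4 D4F library in both. High values of Rn18s-rs5 were not confined to E4/4 D4F. Rn18s-rs5 ranged from 324 to 2853 CPM in E4/4 PBS and from 360 to 2551 CPM in E3/3 D4F libraries. Rn18s-rs5 was 1.21 and Lars2 1.15 for E4/4 PBS against E3/3 PBS. Between E4/4 D4F and E4/4 PBS they differed by 1.28 and 1.0 (log2, unadjusted p = 0.00291 and 0.0015), which did not pass after adjustment in edgeR. The libraries were made with a kit for messenger RNA, and the part of leftover ribosomal RNA in these 2 values was not tested.

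Chaperone genes were partly lower. In the unfolded protein and heat shock list, 11 of 30 genes fell and 1 rose (median −0.14). Called members numbered 0 higher and 4 lower under the depth class model, 0 higher and 10 lower after GC and length removal and 0 higher and 3 lower under both. Calr, a calcium-binding chaperone of the endoplasmic reticulum, ranged from 350.5 to 572 CPM (median 484) in E3/3 PBS and from 307.5 to 379 CPM (median 352) in E4/4 D4F libraries (log2 −0.43, SE 0.0721, edgeR adjusted p = 0.000234), with overlapping groups. The cytosolic chaperones Hspa8 (−0.28) and Hsp90ab1 (−0.25) and the stress-induced Chac1 (−0.50) fell as well. Of 27 proteasome genes 3 rose and 4 fell. For this list, depth class gave 2 higher and 2 lower, GC and length removal 0 higher and 6 lower and both 0 higher and 2 lower. The regulatory subunits Psmd7 (−0.36) and Psmd3 (−0.27) were lower, and the core subunits Psma3 (0.24) and Psmb7 (0.21) higher. Psmd7 ranged from 108 to 129 CPM (median 122) in E3/3 PBS and from 87.2 to 99.05 CPM (median 93.6) in E4/4 D4F libraries (log2 −0.36, SE 0.0527, edgeR adjusted p = 8.81e-05). After GC and length trends were removed Psma3 (log2 0.043, adjusted p = 0.654) and Psmb7 (log2 0.0062, adjusted p = 0.96) missed the edgeR threshold.

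Among 32 lysosomal and autophagy genes 6 fell and 2 rose. Depth class in the model gave 0 higher and 2 lower, removal of GC and length trends 0 higher and 6 lower, and both together 0 higher and 1 lower. Nagpa, which uncovers the sorting tag of lysosomal enzymes (chromosome 16, 5195289 to 5204012), ranged from 11.4 to 15.65 CPM (median 13.3) in E3/3 PBS and from 8.88 to 11.3 CPM (median 9.65) in E4/4 D4F libraries (log2 −0.44, SE 0.0736, edgeR adjusted p = 0.000241). For Nagpa the log2 difference was −0.11 between E4/4 PBS and E3/3 PBS and −0.33 between E4/4 D4F and E4/4 PBS (unadjusted p = 9.90e-05, which did not pass after adjustment in edgeR). The cathepsins Ctsz (−0.33) and Ctsb (−0.23) and the channel Mcoln1 (−0.22) were lower too. Of 26 genes of amyloid precursor processing and tau, 8 fell and 1 rose. With depth class modelled there were 1 higher and 4 lower, with GC and length trends removed 0 higher and 7 lower and with both 0 higher and 0 lower. Gsk3a, a kinase of tau (−0.47), Bin1, a membrane-bending protein linked to Alzheimer's disease risk in humans (−0.32), and Ece1, a protease that degrades amyloid peptides (−0.30), fell, and Aph1b, a subunit of the gamma-secretase that releases them, rose (0.34). Gsk3a ranged from 206 to 299.8 CPM (median 269) in E3/3 PBS and from 169 to 213 CPM (median 189) in E4/4 D4F libraries (log2 −0.47, SE 0.0698, edgeR adjusted p = 9.58e-05). In the antioxidant list, 3 of 22 genes rose and 2 fell. Depth class gave 2 higher and 1 lower, GC and length removal 0 higher and 1 lower and both 0 higher and 0 lower. The peroxiredoxin Prdx1 (0.32) and thioredoxin Txn1 (0.29) rose, and Keap1, the inhibitor of NRF2 (−0.26), and the lipid peroxidase Gpx4 (−0.34) fell. Once depth class entered the model Ctsz (log2 −0.22, adjusted p = 0.091), Ctsb (log2 −0.18, adjusted p = 0.121), Mcoln1 (log2 −0.19, adjusted p = 0.0509), Ece1 (log2 −0.19, adjusted p = 0.0841) and Gpx4 (log2 −0.19, adjusted p = 0.183) did not pass in edgeR. Removal of GC and length trends ended the edgeR calls of Aph1b (log2 0.19, adjusted p = 0.0507), Prdx1 (log2 0.14, adjusted p = 0.0587), Txn1 (log2 0.18, adjusted p = 0.0569) and Keap1 (log2 −0.12, adjusted p = 0.158). Ctsb did not pass without E4/4_M_D4F_4 (adjusted p = 0.0502).

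Cytosolic ribosomal protein genes showed 4 higher and 3 lower of 40, near the shares of all tested genes (9.54% and 9.8%), with a median of 0.031. These counts were 1 higher and 0 lower with depth class, 4 higher and 4 lower without GC and length trends and 1 higher and 1 lower with both. Rpl15 (0.22) and Rps20 (0.38) rose, and Rpl23 (−0.36) and Rpl19 (−0.32) fell. These genes have many near-identical pseudogenes that can share reads, which makes each value uncertain, and Rpl23 stood at 0.078 among libraries above 26 M counts. Modelling depth class ended the edgeR calls of Rps20 (log2 0.37, adjusted p = 0.0542), Rpl23 (log2 −0.21, adjusted p = 0.196) and Rpl19 (log2 −0.20, adjusted p = 0.178). Without GC and length trends Rpl15 (log2 0.045, adjusted p = 0.635) and Rps20 (log2 0.19, adjusted p = 0.281) did not pass in edgeR.

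Steep rises were seen in genes of the hypothalamus, a small region whose neurons make oxytocin, vasopressin and other peptide hormones. Of 25 symbols of the hypothalamic and neuropeptide list 18 could be tested, several of them near 0 in E3/3 PBS and past the filter through libraries where they are high. Of those tested, 9 rose and 0 fell, with a median of 1.56 (1.06 in females, 2.03 in males). Called members numbered 6 higher and 0 lower under the depth class model, 7 higher and 0 lower after GC and length removal and 4 higher and 0 lower under both. Oxt, the oxytocin precursor (chromosome 2, 130576173 to 130577054), ranged from 0 to 0.306 CPM (median 0.0532) in E3/3 PBS and from 0.0244 to 7.34 CPM (median 1.22) in E4/4 D4F libraries (log2 4.71, SE 1.11, edgeR adjusted p = 0.00435). Avp, the vasopressin precursor (chromosome 2, 130580620 to 130582554), ranged from 0 to 0.479 CPM (median 0.141) in E3/3 PBS and from 0.122 to 12.9 CPM (median 1.43) in E4/4 D4F libraries (log2 4.16, SE 0.959, edgeR adjusted p = 0.00373). Gal, the galanin precursor, ranged from 0 to 0.612 CPM (median 0.1285) in E3/3 PBS and from 0.6035 to 4.67 CPM (median 1.05) in E4/4 D4F libraries (log2 3.29, SE 0.678, edgeR adjusted p = 0.00142). The groups overlapped for all 3 genes. In E4/4_F_D4F_4 and E4/4_M_D4F_1, Oxt was at 0.0244 and 0.0724 CPM and Avp at 0.122 and 0.241 CPM, inside the E3/3 PBS range, and the other 6 E4/4 D4F libraries were above that range for both genes. Sim1, a transcription factor that specifies these neurons, had 0 counts in all 8 E3/3 PBS libraries and 152 counts over the E4/4 D4F libraries, which is at least 43.4-fold higher when the E3/3 PBS group is set to a floor of 3 counts over the group. The floor covers counting error only.

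Other risers in the list were Otp (3.34), a factor of the same neurons, the melanin-concentrating hormone precursor Pmch (2.49), the appetite peptide precursor Pomc (1.57), the thyrotropin-releasing hormone precursor Trh (1.55) and Fezf1 (2.52), a factor of the ventromedial hypothalamus (log2). Genes outside the list were ranked by size of change among called genes that averaged at least 1 on the log2 CPM scale. Beside Rn18s-rs5 and Lars2, that ranking held Gpr101, an orphan receptor (2.48), Gabrq, the theta subunit of the GABA-A receptor (2.28), and Igsf1, linked to central hypothyroidism in humans (1.96). It also held the neurokinin receptor Tacr3 (1.33), the zinc-finger gene Zim1 (1.29), the lipid-transfer protein Esyt3 (1.32), AW551984 (1.77) and Agt, the angiotensin precursor made by astrocytes (1.56). Agt ranged from 4.27 to 16.2 CPM (median 5.1) in E3/3 PBS and from 4.44 to 34.7 CPM (median 18.3) in E4/4 D4F libraries (log2 1.56, SE 0.445, edgeR adjusted p = 0.0156). Its lowest E4/4 D4F libraries were again E4/4_F_D4F_4 and E4/4_M_D4F_1. The summed CPM of the hypothalamic list ran from 28.2 to 97.4 in E3/3 PBS, where E3/3_F_PBS_1 was highest and the next was at 59.9, and from 35.8 to 124.9 in E4/4 D4F. For E4/4 PBS the sum ran from 24.1 to 104. Whether the dissected tissue held more hypothalamus in some libraries was not tested. With depth class and removal of GC and length trends together, Gabrq (log2 2.02, adjusted p = 0.0824), Esyt3 (log2 1.33, adjusted p = 0.0549) and Agt (log2 1.71, adjusted p = 0.0528) did not pass in edgeR. In the model that holds depth class, Pmch (log2 2.36, adjusted p = 0.105), Trh (log2 1.44, adjusted p = 0.0617), Fezf1 (log2 2.74, adjusted p = 0.067), Gpr101 (log2 2.51, adjusted p = 0.0729), Igsf1 (log2 1.89, adjusted p = 0.114), Zim1 (log2 1.2, adjusted p = 0.0512) and AW551984 (log2 1.71, adjusted p = 0.0717) missed the edgeR threshold. Taking out GC and length trends left Pmch (log2 2.25, adjusted p = 0.0600), Fezf1 (log2 2.54, adjusted p = 0.0528), Gpr101 (log2 2.31, adjusted p = 0.0651), Igsf1 (log2 1.95, adjusted p = 0.0575) and Tacr3 (log2 1.22, adjusted p = 0.0532) above the edgeR threshold of 0.05. Pmch passed in 15 of the 16 fits that left out 1 library, Pomc passed in 15 of the 16 fits that left out 1 library, Fezf1 passed in 4 of the 16 fits that left out 1 library, Gpr101 passed in 9 of the 16 fits that left out 1 library (adjusted p up to 0.0713), Igsf1 passed in 6 of the 16 fits that left out 1 library (adjusted p up to 0.112), Tacr3 passed in 13 of the 16 fits that left out 1 library (adjusted p up to 0.0649) and AW551984 did not pass without E4/4_F_D4F_2 (adjusted p = 0.0603).

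The list median was 1.02 for E4/4 PBS against E3/3 PBS, with 3 members called, and 0.52 for E4/4 D4F against E4/4 PBS, with none called. The promoters of Oxt and Avp are shown as those of the adjacent hormone genes with the largest called changes among hypothalamic peptides. They lie near each other on chromosome 2 and point toward each other. Both are from RefSeq on GRCm38.p6, 5′ to 3′, Oxt at chr2:130575919-130576218 (plus strand) with the nuclear receptor core site AGGTCA and its reverse TGACCT in capitals, and Avp at chr2:130582539-130582838 (minus strand) with CACGTG in capitals.
Oxt: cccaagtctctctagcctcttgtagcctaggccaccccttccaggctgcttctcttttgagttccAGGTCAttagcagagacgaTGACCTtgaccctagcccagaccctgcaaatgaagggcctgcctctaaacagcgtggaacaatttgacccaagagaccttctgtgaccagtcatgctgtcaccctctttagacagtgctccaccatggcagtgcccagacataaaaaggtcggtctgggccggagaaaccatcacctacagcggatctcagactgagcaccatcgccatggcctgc
Avp: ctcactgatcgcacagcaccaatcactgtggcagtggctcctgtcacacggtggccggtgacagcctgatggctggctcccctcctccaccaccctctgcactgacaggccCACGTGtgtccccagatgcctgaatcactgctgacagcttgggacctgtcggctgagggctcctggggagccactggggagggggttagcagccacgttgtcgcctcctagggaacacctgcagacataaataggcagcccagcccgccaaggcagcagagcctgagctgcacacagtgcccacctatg
AGGTCA occurs on either strand in 16.3% of the 32851 promoters and CACGTG in 7.15%. The Abca1 promoter shown above holds CACGTG as well.

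**Figure D4:**
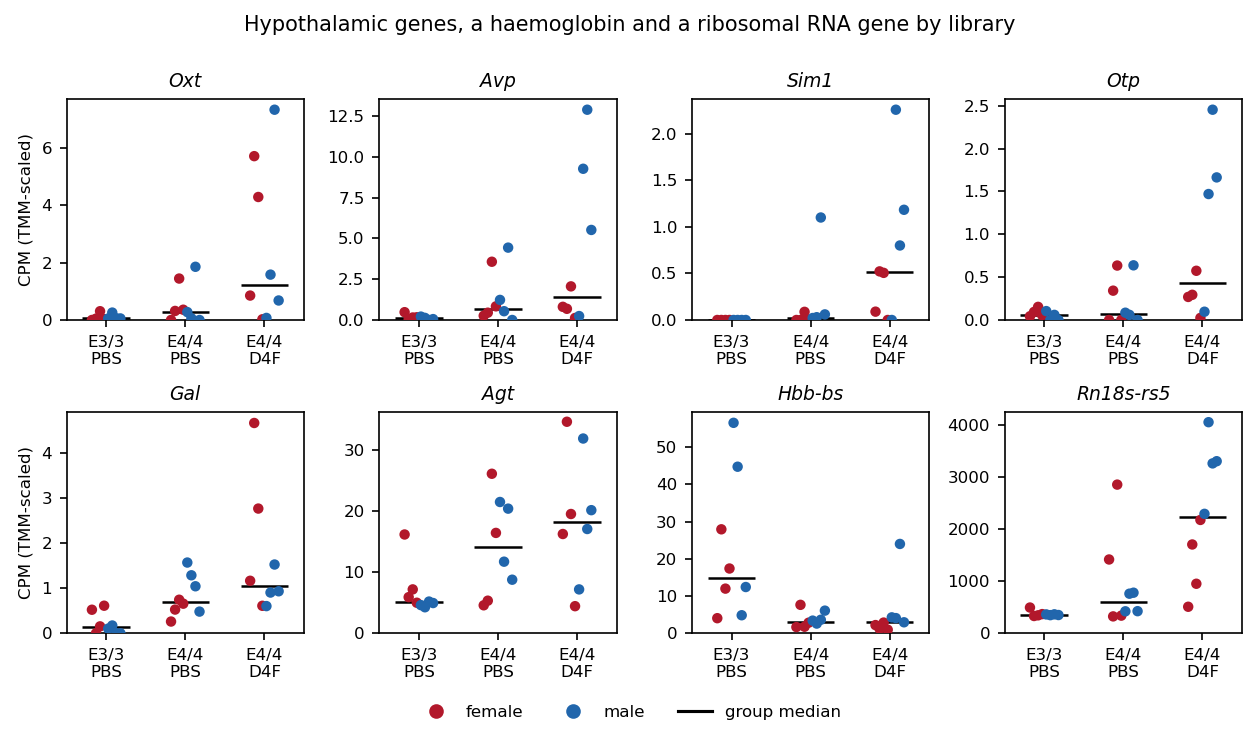
TMM-scaled CPM of 8 genes, 1 point per library (red female, blue male), with black lines at the group medians, in E3/3 PBS, E4/4 PBS and E4/4 D4F (n = 8 each). Oxt, Avp, Sim1, Otp, Gal and Agt are high in some but not all E4/4 D4F libraries, Hbb-bs is mostly lower, and Rn18s-rs5 is above every E3/3 PBS library.

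Other regional markers moved less evenly. Of 24 olfactory bulb genes 5 rose and 1 fell (median 0.93). For this list, depth class gave 2 higher and 0 lower, GC and length removal 4 higher and 0 lower and both 1 higher and 0 lower. Kctd12, a partner of GABA-B receptors, ranged from 35.1 to 60.35 CPM (median 48.3) in E3/3 PBS and from 60.5 to 82.35 CPM (median 71.5) in E4/4 D4F libraries (log2 0.59, SE 0.100, edgeR adjusted p = 0.000267), with separate groups. Slc17a6, the glutamate transporter of subcortical and olfactory neurons (0.88), and the factor Barhl2 (1.69) rose as well. None of 20 striatal markers was called in edgeR, while their median stood at 0.38 and their summed CPM spanned 1654 to 5437 in E3/3 PBS and 1748 to 5688 in E4/4 D4F libraries. In choroid plexus, 2 of 23 rose, the water channel Aqp1 (2.08) and the prolactin receptor Prlr (1.62). Its summed CPM ran from 271 to 695 in E3/3 PBS and from 302 to 1400 in E4/4 D4F libraries. Among cerebellar genes Cbln3 fell (−1.31) and the calcium buffer Calb1 rose (0.32). The part of dissection in these differences was not tested. Calls lost in edgeR once depth class was modelled were those of Barhl2 (log2 1.58, adjusted p = 0.0800), Aqp1 (log2 1.32, adjusted p = 0.125), Prlr (log2 1.29, adjusted p = 0.148) and Calb1 (log2 0.30, adjusted p = 0.0616). After GC and length trends were removed Prlr (log2 1.44, adjusted p = 0.0786) and Calb1 (log2 0.048, adjusted p = 0.799) missed the edgeR threshold. Prlr passed in 5 of the 16 fits that left out 1 library (adjusted p up to 0.0775) and Cbln3 did not pass without E3/3_F_PBS_4 (adjusted p = 0.0545).

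Glial genes differed in both directions. Of 28 myelin and oligodendrocyte genes 5 rose and 2 fell, with a median of 0.0051. Depth class in the model gave 4 higher and 0 lower, removal of GC and length trends 1 higher and 0 lower, and both together 0 higher and 0 lower. The median was 0.15 for E4/4 PBS against E3/3 PBS, where 10 rose, and −0.12 for E4/4 D4F against E4/4 PBS. Aspa, which splits N-acetylaspartate in oligodendrocytes (chromosome 11, 73304992 to 73329596), ranged from 13.3 to 22.8 CPM (median 16.2) in E3/3 PBS and from 19.7 to 24.8 CPM (median 22.6) in E4/4 D4F libraries (log2 0.42, SE 0.0937, edgeR adjusted p = 0.00258). The tetraspanin Tspan2 (0.33) rose too, the sulfatide enzyme Gal3st1 (−0.27) and the hydroxylase Fa2h (−0.27) fell, and Mbp did not pass (log2 −0.058, 95% interval −0.22 to 0.11, adjusted p = 0.685). Among oligodendrocyte precursor genes Lhfpl3 (0.79) and the proteoglycan Vcan (0.30) rose. Once depth class entered the model Tspan2 (log2 0.28, adjusted p = 0.0518), Gal3st1 (log2 −0.22, adjusted p = 0.106), Fa2h (log2 −0.18, adjusted p = 0.244) and Vcan (log2 0.26, adjusted p = 0.0977) did not pass in edgeR. Removal of GC and length trends ended the edgeR calls of Aspa (log2 0.19, adjusted p = 0.0993), Tspan2 (log2 0.17, adjusted p = 0.143), Gal3st1 (log2 −0.14, adjusted p = 0.286), Fa2h (log2 −0.20, adjusted p = 0.131) and Vcan (log2 0.12, adjusted p = 0.452). Fa2h passed in 6 of the 16 fits that left out 1 library and Vcan did not pass without E3/3_F_PBS_3 (adjusted p = 0.0504) and E4/4_M_D4F_4 (adjusted p = 0.0609).

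Astrocyte genes rose in 3 and fell in 2 of 18 cases. With depth class modelled there were 3 higher and 1 lower, with GC and length trends removed 2 higher and 1 lower and with both 0 higher and 1 lower. Beside Agt, the bicarbonate transporter Slc4a4 (0.43) was higher, and Glul, which makes glutamine (−0.28), was lower. Gfap, the filament of reactive astrocytes, ranged from 80.1 to 228 CPM (median 118) in E3/3 PBS and from 109 to 158 CPM (median 148) in E4/4 D4F libraries and did not pass (log2 0.15, 95% interval −0.11 to 0.41, adjusted p = 0.479). In microglia 3 of 18 genes rose, the tetraspanin Cd53 (0.54) and the surface receptors Gpr34 (0.55) and Siglech (0.27), and 1 fell, Selplg (−0.27). These counts were 3 higher and 0 lower with depth class, 1 higher and 1 lower without GC and length trends and 0 higher and 0 lower with both. Trem2, the lipid receptor of activated microglia (log2 −0.063, 95% interval −0.27 to 0.15, adjusted p = 0.733), and Aif1 (log2 0.033, 95% interval −0.16 to 0.23, adjusted p = 0.855) did not pass. Of 23 complement and disease-associated microglial genes only Spp1, or osteopontin (0.84), rose and only Ctsb fell. The class I light chain B2m was the single antigen presentation gene of 16 to change (−0.29). B2m stood at 0.0177 among libraries above 26 M counts. Modelling depth class ended the edgeR calls of Selplg (log2 −0.15, adjusted p = 0.312) and B2m (log2 −0.16, adjusted p = 0.335). Without GC and length trends Gpr34 (log2 0.28, adjusted p = 0.148) and Siglech (log2 0.15, adjusted p = 0.158) did not pass in edgeR. Selplg passed in 8 of the 16 fits that left out 1 library (adjusted p up to 0.119) and B2m passed in 6 of the 16 fits that left out 1 library (adjusted p up to 0.116).

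Vascular genes were partly lower. In the endothelial list 4 of 20 fell, among them the junction protein Cdh5 (−0.49) and the growth factor receptor Flt1 (−0.35), and 2 rose, including Itm2a (0.35). Called members numbered 1 higher and 3 lower under the depth class model, 0 higher and 3 lower after GC and length removal and 0 higher and 2 lower under both. Of 14 mural genes 4 fell: Notch3 (−0.43), Pdgfrb (−0.37), Kcnj8 (−0.39) and Abcc9 (−0.34). For this list, depth class gave 0 higher and 1 lower, GC and length removal 0 higher and 3 lower and both 0 higher and 2 lower. None of 16 meningeal and perivascular fibroblast genes and none of 15 ependymal genes passed in edgeR. Blood genes were much lower, in 6 of 9 tested members (median −1.75). The blood list median was −0.57 among libraries above 26 M counts and −1.91 among those below, and −2.51 in females and −0.99 in males. Depth class in the model gave 0 higher and 5 lower, removal of GC and length trends 0 higher and 5 lower, and both together 0 higher and 5 lower. Hbb-bs, an adult beta-globin (chromosome 7, 103826534 to 103828096), ranged from 4.05 to 56.5 CPM (median 14.9) in E3/3 PBS and from 0.952 to 24 CPM (median 2.91) in E4/4 D4F libraries (log2 −2.42, SE 0.547, edgeR adjusted p = 0.00337). Its groups overlapped, in part through E4/4_M_D4F_3, at 24 CPM with the next at 4.27. Hba-a1 (−2.69), Hba-a2 (−2.31) and Alas2, the haem synthesis enzyme of red cells (−2.37), fell alike, and near-identical globin copies can share reads, which makes the value of each copy uncertain. The amount of blood left in the tissue was not tested as a source of these values. In the model that holds depth class, Pdgfrb (log2 −0.30, adjusted p = 0.0806), Kcnj8 (log2 −0.36, adjusted p = 0.0769) and Abcc9 (log2 −0.39, adjusted p = 0.0629) missed the edgeR threshold. Taking out GC and length trends left Itm2a (log2 0.15, adjusted p = 0.258), Notch3 (log2 −0.30, adjusted p = 0.0578) and Kcnj8 (log2 −0.36, adjusted p = 0.0564) above the edgeR threshold of 0.05. Kcnj8 passed in 13 of the 16 fits that left out 1 library (adjusted p up to 0.0575) and Abcc9 passed in 4 of the 16 fits that left out 1 library (adjusted p up to 0.103).

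The neighbours of Apoe on chromosome 7, near the edited locus, were lower in 10 of 36 tested cases and higher in 0 (median −0.23, or −0.065 with GC and length trends removed). With depth class modelled there were 0 higher and 5 lower, with GC and length trends removed 1 higher and 5 lower and with both 0 higher and 2 lower. Ppp1r37, a phosphatase regulator (chromosome 7, 19530800 to 19563076), ranged from 209 to 282 CPM (median 238) in E3/3 PBS and from 137.5 to 178.5 CPM (median 170.1) in E4/4 D4F libraries (log2 −0.56, SE 0.0688, edgeR adjusted p = 3.32e-05). All 8 E4/4 D4F libraries were below the E3/3 PBS libraries. Mark4, a microtubule-affinity kinase (−0.34), Sympk, a scaffold of RNA 3′-end processing (−0.24), and Rtn2, a reticulon (−0.30), fell with it. For E4/4 PBS against E3/3 PBS the list median was −0.17. After GC and length trends were removed Mark4 (log2 −0.17, adjusted p = 0.0665) missed the edgeR threshold.

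Outside the lists, and among called protein-coding genes that averaged at least 1 on the log2 CPM scale, the largest decreases were in Espn, an actin bundler of sensory hair cells (−1.12), Gipc3, a scaffold known from hearing loss (−1.03), Kcng4, a modifier of potassium channels (−0.99), Grid2ip, a scaffold of the delta glutamate receptor (−0.93), and Myh3, the embryonic myosin (−0.93). Espn ranged from 2.79 to 7.45 CPM (median 4.35) in E3/3 PBS and from 1.67 to 2.73 CPM (median 2.23) in E4/4 D4F libraries (log2 −1.12, SE 0.245, edgeR adjusted p = 0.00217), with separate groups. Among noncoding RNAs the dendritic Bc1 (−1.21) and the lincRNA 5330416C01Rik (−1.01) fell, and so did the processed pseudogenes Gm15542 (−1.01) and Gm12481 (−0.89) (log2). Bc1 stood at 0.88 among libraries above 26 M counts. With depth class and removal of GC and length trends together, Espn (log2 −0.77, adjusted p = 0.11) and Gipc3 (log2 −0.84, adjusted p = 0.104) did not pass in edgeR. Once depth class entered the model Kcng4 (log2 −0.94, adjusted p = 0.122), Myh3 (log2 −0.93, adjusted p = 0.0817), Bc1 (log2 −0.46, adjusted p = 0.517) and 5330416C01Rik (log2 −1.0, adjusted p = 0.128) did not pass in edgeR. Removal of GC and length trends ended the edgeR calls of Kcng4 (log2 −0.88, adjusted p = 0.102), Grid2ip (log2 −0.78, adjusted p = 0.0748), Myh3 (log2 −0.88, adjusted p = 0.0579) and 5330416C01Rik (log2 −1.11, adjusted p = 0.0515). Kcng4 passed in 8 of the 16 fits that left out 1 library (adjusted p up to 0.107), Myh3 passed in 10 of the 16 fits that left out 1 library (adjusted p up to 0.0639), Bc1 passed in 7 of the 16 fits that left out 1 library (adjusted p up to 0.0775) and 5330416C01Rik passed in 4 of the 16 fits that left out 1 library (adjusted p up to 0.111).

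Females and males gave different numbers of calls, with 4 libraries a group in each. Within females 2523 genes passed (12.4%), 1219 higher (6.01%) and 1304 lower (6.42%), and within males 47 (0.232%), 22 higher (0.108%) and 25 lower (0.123%). The sexes were not shown to differ: edgeR called 0 genes for the difference between the female and the male change, and 1009 (4.97%) had an unadjusted p under 0.05. B4galnt1 fell by 0.68 in females and by 0.56 in males on the log2 scale, Ppp1r37 by 0.62 and 0.50, and Dlgap3 by 0.83 and 0.54, all called within both sexes in edgeR. Klhl7, part of a ubiquitin ligase, differed by 0.69 in females and 0.22 in males, Rell2 by −0.69 and −0.37, and Echs1, an enzyme of beta-oxidation, by 0.11 and 0.38 (log2, adjusted p of the sex difference 0.99, 0.99 and 0.99). The smallest unadjusted p for a sex difference were those of Entrep3 (−0.33 and 0.08), Kantr (0.30 and −0.35), Cdk15 (−0.85 and 1.39), Pef1 (−0.16 and 0.22) and Ccar1 (0.22 and −0.13, females first, edgeR adjusted p 0.99 for Ccar1 and 0.99 for Entrep3). Within females, leaving out 1 library moved the count from 1041 (without E4/4_F_D4F_2) to 3772 (without E3/3_F_PBS_4), and within males it was 408 without E3/3_M_PBS_3 and 0 to 2 without any other male library. With depth class in the model 1198 genes were called in females and 1 in males, and with GC and length trends removed 462 and 55. DESeq2 called 465 in males.

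Beside these counts, E4/4 PBS against E3/3 PBS gave 4137 calls (20.4%, with 9.89% higher and 10.5% lower), E4/4 D4F against E4/4 PBS gave 0 in edgeR (382 at an unadjusted p under 0.05, 1.88%), and E3/3 D4F against E3/3 PBS gave 659 (3.25%, with 1.81% higher and 1.44% lower). With depth class 1286 genes were called for E4/4 PBS against E3/3 PBS. For E3/3 D4F against E3/3 PBS the count with depth class was 0 in edgeR (2473 at an unadjusted p under 0.05), and leaving out 1 library gave 115 (without E3/3_F_PBS_2) to 2192 (without E3/3_F_PBS_4). Because these share libraries with the comparison described, no overlap between them was computed. Named genes with a larger change in treated than in vehicle E4/4 mice included mt-Atp8 (0.98 against 0.46), Pomc (1.57 against 0.14), Nptx2 (−0.39 against −0.13) and Bhlhe41 (0.38 against 0.16), and among those with a smaller one was Aspa (0.42 against 0.59) (log2 against E3/3 PBS). None of these differences between E4/4 D4F and E4/4 PBS passed in edgeR.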

How the data were processed

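Stranded messenger RNA libraries were made from brain homogenates, per the labels. The authors deposited 1 table of raw counts of 57010 gene names in 32 libraries, made with Trimmomatic, HISAT2 and featureCounts on mouse build GRCm38, per the submitters' processing notes. The sources used here do not give tool versions, annotation or strand setting. The table held 150 repeated gene names, which were kept as separate entries. Coordinates and GC content were matched by symbol to GENCODE M21 on GRCm38, which gave a GC content for 19207 tested genes (94.6%). Some names in the table are newer than that annotation, so coordinates are those of the annotation and not necessarily the ones counted.

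The count model used edgeR 4.0.16 in R 4.3.3. The filter asked for counts of at least 10 in enough libraries and at least 15 in all, and 20298 genes passed it. Libraries were scaled by TMM, and a robust quasi-likelihood model with 1 coefficient for each of 8 groups was fitted to all 32 libraries. The comparison averages the female and male contrasts. P-values are two-sided and adjusted by Benjamini and Hochberg over all genes tested, and a gene was called below 0.05. The adjusted p-values of the 7 comparisons are separate. Each mouse gave 1 library, so p-values measure the spread between mice. CPM are TMM-scaled, SE is that of the log2 change, and 95% intervals are 1.96 SE on either side. A library's GC slope is the slope of its log2 CPM deviation on GC content over genes, and groups of 8 were compared by exact permutation over 12870 regroupings.

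The libraries, lists and naming rule were chosen with earlier results of these data known. The rule took the 12 largest called changes each way where the log2 CPM averaged at least 1, the 5 smallest p each way, up to 4 called members of each list, the 5 smallest p within each sex and for the sex difference, and 23 fixed genes. Further members were named after their values were seen. Some genes that the rule takes are not reported here. The lists held 953 entries for 923 symbols, 26 of them in more than 1 list, and 28 symbols had too few counts to test. Alternatives were DESeq2 1.42.0 and its size factors, limma-voom (limma 3.58.1), other filters, fewer libraries, depth class, thinning, removal of GC and length trends, a replicate block and leaving out each library. Promoter sequences are from RefSeq, GRCm38.p6.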

Additional observations from a re-analysis of the deposited data

Results flagged for a closer look

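In groups of 8 libraries, the highest or lowest value was set against its nearest neighbour by Dixon's test. It marked 35 of 340 groups of values. The cutoff is set to mark about 1 in 20 groups of independent normal values. CPM of genes that vary together need not meet that, so the rate by chance is not known here. The values are given without explanation.

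The library E3/3_F_PBS_1 held 11 of them. It was the highest of E3/3 PBS for Gfap (228 CPM), Trem2 (26 CPM), Ctsz (89 CPM), Spp1 (14.6 CPM), Agt (16.2 CPM), Gpr101 (7.58 CPM), Igsf1 (6.27 CPM), Avp (0.479 CPM) and Rn18s-rs5 (494 CPM). It was the lowest for Snap25 (1660 CPM) and Abcc9 (5.92 CPM). The library E3/3_F_PBS_4 was highest for Cbln3 (2.84 CPM) and Prlr (4.15 CPM) and lowest for Hspa8 (1570 CPM). E3/3_F_PBS_2 was highest for Stard3 (45.8 CPM), and E3/3_M_PBS_3 for Uqcrc2 (176 CPM).

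In E4/4 D4F, the library E4/4_M_D4F_3 was highest for Hbb-bs (24 CPM), Hba-a1 (11.8 CPM), Hba-a2 (4.08 CPM) and Alas2 (0.851 CPM). E4/4_F_D4F_2 was highest for Gabrq (19.8 CPM), Gphn (83.5 CPM) and Kantr (33.9 CPM) and lowest for Ppp1r37 (137 CPM) and GC slope (−0.0153). E4/4_M_D4F_1 was highest for Fabp7 (66.5 CPM), mt-Nd3 (48.1 CPM) and Kcnn1 (17.5 CPM) and lowest for Gpr34 (8.79 CPM). E4/4_M_D4F_2 stood highest for Psmd3 (137 CPM), Spp1 (24.5 CPM) and Lcat (25.1 CPM). E4/4_F_D4F_4 was highest for Flt1 (77 CPM) and 5330416C01Rik (4.59 CPM), and E4/4_M_D4F_4 for Slc2a1 (125 CPM).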

How the results depend on the processing

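The 3927 calls of E4/4 D4F against E3/3 PBS were 2897 to 4378 with other tools, scalings and filters, with the 16 libraries alone, with sex as an additive term and after thinning. They were 1612 with depth class in the model, of which 1592 were among the 3927, and 2211 with GC and length trends removed, of which 1657 were. With both, an alternative chosen after seeing the data, 563 were called. Libraries above 26 M counts gave 0 (1949 at an unadjusted p under 0.05) and those below gave 261 in edgeR. There, E3/3 PBS keeps 2 libraries and E4/4 D4F keeps 2, respectively, and the cause of the fewer calls was not tested. The fit above 26 M counts had a coefficient for each group within each sex. The fit below took sex as an additive term, so the counts come from unlike models. The median called gene kept 0.496 of its change above and 1.2 below. Leaving out 1 library gave 2971 (without E4/4_F_D4F_2) to 4721 (without E3/3_F_PBS_4).

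Within females 1198 genes were called with depth class modelled and 462 after removal of GC and length trends, and 1041 to 3772 without 1 library. Within males the count was 465 with DESeq2, 1 with depth class, 1 with the replicate block, and 0 to 408 without 1 library. E4/4 PBS against E3/3 PBS gave 1286 with depth class, 2679 with GC and length trends removed and 3209 to 4843 without 1 library. E3/3 D4F against E3/3 PBS gave 1353 with DESeq2, 0 in edgeR with depth class, and 115 (without E3/3_F_PBS_2) to 2192 (without E3/3_F_PBS_4) without 1 library. The difference in total counts was 6.38 to 9.69 M without 1 library (exact permutation p = 0.0241 to 0.139), and that in GC slope −0.0208 to −0.0158 (exact permutation p = 0.000155 to 0.00233).

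Over 168 genes, 4563 alternative values kept the side of the threshold, with direction kept where both fits called the gene. Changes of sign where neither fit called the gene are among these 4563. Another 793 kept direction and did not pass, 8 came to pass and 7 changed sign where a fit called the gene. Those 7 were Bc1 (0.882), Rpl23 (0.0780), Gapdh (0.0671) and B2m (0.0177) above 26 M counts, and Hadhb with GC and length trends removed alone (−0.0371), with the replicate block (−0.0337) and with depth class (−0.0281).

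Replicate numbers are shared between groups, but same-numbered libraries deviated together in few cases: r ran from −0.121 to 0.178 over 8 pairs and exceeded 0.1 in 3, and 3 of 8 libraries correlated best with their own number. The numbers were not taken as pairs. With the replicate block 3839 genes were called, 2020 with the block and GC and length trends removed, and 1141 with the block and depth class. Depth limits the weak genes: Oxt, Avp, Sim1 and Otp rest on values under 1 CPM in E3/3 PBS.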
